A study of Mus musculus with 2 samples.

Results

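Small nuclear and nucleolar RNA genes were taken as every gene whose symbol starts with Snora, Snord, Scarna or Rnu, outside chromosomes 10 and 17. There were 150 of them among the 48550 genes of the table, 90 Snord, 36 Snora, 9 Scarna and 15 Rnu genes on 18 chromosomes. The 14 genes with such symbols on chromosomes 10 and 17 were not analysed here. The cells were F121-6, female embryonic stem (ES) cells of a hybrid between 129 and cas (castaneus) mice, so that every autosomal gene has a 129 and a cas allele. They grew with fetal calf serum and LIF on mouse embryonic fibroblasts stopped from dividing by mitomycin C. The 2 groups compared were the 129 alleles and the cas alleles of the same cells, with no treatment, no mutant and 1 cell line. Total nuclear RNA of 2 libraries of this line was sequenced strand-specifically. Since no label names separate cultures for them, p-values measure only the spread between these libraries, which may be technical. In the limma fit this spread, and with it each SE, was shared by genes of like abundance and was not the named gene's own.

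Most small nuclear RNAs (snRNAs) form the cores of the spliceosome, in which U1 and U2 recognise the 5′ splice site and the branch site, and U5 holds the exons in place. U11 and U12 take the corresponding places in the minor spliceosome, which removes a rare class of introns. Not all Rnu genes encode spliceosomal RNAs, since U3 (the Rnu3b genes) is a nucleolar RNA and U7 acts on the ends of histone mRNAs. Small nucleolar RNAs guide the chemical marking of ribosomal RNA: box C/D RNAs (Snord) direct 2′-O-methylation by fibrillarin and box H/ACA RNAs (Snora) direct pseudouridylation by dyskerin, while small Cajal body RNAs (Scarna) guide the same marks on snRNAs. In mammals most box C/D and box H/ACA RNAs are cut from introns of host genes, whereas U1, U2, U5, U12, U8 and U13 have promoters of their own. Many snRNA genes exist as near-identical copies at several places in the genome.

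The U5 genes show how close such copies can be, and the allele results on U5 below turn on them. In GENCODE release M21, on the reference genome GRCm38 (mm10), which is neither 129 nor cas, Rnu5g and Gm25313 lie on the minus strand of chromosome 9 and Gm23143 on the plus strand of chromosome 4, each as a single exon. All 3 are 116 bases long and share their first 83 bases. Rnu5g and Gm25313 differ at 3 positions (97.4% identical), and Gm23143 differs from Rnu5g at 10 positions (91.4% identical).

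Snord104 and Snord118 (U8), both box C/D genes with reads, are shown as examples of the class, with the letters of box C (TGATGA, first occurrence) and box D (CTGA, last occurrence) in capitals, searched on the RNA strand only. The sequences are GENCODE transcripts of the same build, written 5′ to 3′ as DNA. Snord104 lies at chr11:106500993-106501062 and Snord118 at chr11:69073427-69073561, both on the plus strand.
Snord104: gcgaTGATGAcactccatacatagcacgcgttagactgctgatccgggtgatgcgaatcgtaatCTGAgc
Snord118: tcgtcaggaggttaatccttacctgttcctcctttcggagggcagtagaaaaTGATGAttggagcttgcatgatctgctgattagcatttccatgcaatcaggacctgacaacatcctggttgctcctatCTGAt

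These letters, TGATGA followed by CTGA, were found in 67 of the 90 Snord genes (74.4%) and in 10 of the 60 other listed genes (16.7%). In Snord104 box C lies at the very 5′ end, whereas in Snord118 it lies inside the RNA, after a longer 5′ stretch.

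The deposited values were RPKM and were turned back into whole reads, since the product of value and length moved in whole steps, each step being 1 read. The values are given per allele, so a gene without a usable difference between 129 and cas is listed at 0 whatever its level. Library 1 held 28523744 allele reads, 53.6% of them from 129, and library 2 held 31402765, 54.2% from 129. After scaling, a log2 ratio of 129 over cas of 0 stands for a 129 share of 55.1% in library 1 and 56.2% in library 2, so that ratios are relative to the typical gene. Limma tested 15509 genes and called 6809 of them (43.9%; Benjamini-Hochberg adjustment, threshold 0.05), 3402 (21.9%) higher from 129 and 3407 (22.0%) higher from cas. Where both alleles of a library were given the same library size, the median gene stood at 0.32, and 129 was the higher allele in 81.3% of the calls instead of 50.0%. Of the ES cell markers 7 of 8 were tested, with 1 higher from 129, 3 higher from cas and 3 not called. Of the fibroblast markers 10 of 12 were tested, with 9 higher from 129, none higher from cas and a median log2 ratio of 4.76. The summed reads of all fibroblast markers were 10096 from 129 and 1691 from cas in library 1, and 13650 from 129 and 1943 from cas in library 2, with Lum at 0, and the summed reads of all ES cell markers were 50083 from 129 and 43522 from cas in library 1, and 52781 from 129 and 44933 from cas in library 2. The labels do not name the feeder strain, and the part of feeder RNA in the results that follow was not tested.

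Few of the small RNA genes had any allele read. Reads were found for 12 of the 150 (8.0%), and 138 were listed at 0, whereas 50.73% of all genes in the table and 80.58% of protein-coding genes had reads. The other 5027 small RNA genes in the table had reads in 397 cases (7.9%). By class, 3 of 90 Snord genes, 1 of 36 Snora genes, 3 of 9 Scarna genes and 5 of 15 Rnu genes had reads. The 12 genes held 38467 reads over both libraries, and 91.8% of these fell on Scarna2, Scarna13 and Rnu5g.

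All genes with reads lay outside host genes that have a row of their own, but not all genes outside such hosts had reads. By annotation alone, reads were found for 1 of 134 genes inside a same-strand gene (Scarna13) and for 11 of the 16 others. All 12 genes with reads were among the 19 that do not lie inside a same-strand gene with a row of its own (63.2%), and all 131 genes inside such a host gene were listed at 0. The need for a row was not part of the planned definition of a host. It places Scarna13, Scarna3a and Snord23 among the 19, since their hosts were not matched to a row by name. By class the genes inside a host were 86 Snord, 33 Snora, 5 Scarna and 7 Rnu genes. The other small RNA genes differed in the same direction but less fully, with reads for 16 of 1893 inside a host (0.845%) and for 381 of 3134 outside (12.2%). How the authors' counting treated a read that overlaps both a small RNA and its host is not stated in the labels, and its part in this split was not tested.

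**Figure D1:**
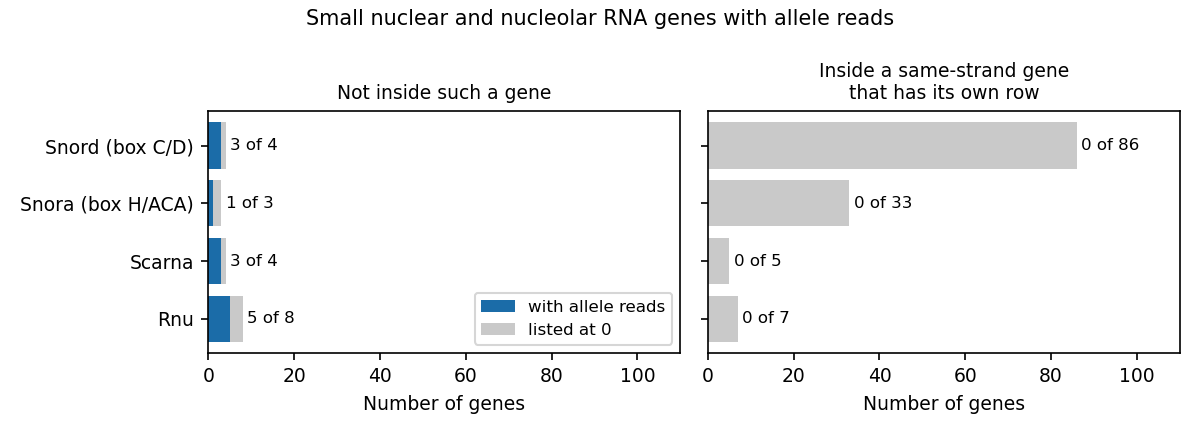
Number of small RNA genes (horizontal axis) by class, with allele reads in blue and listed at 0 in grey, for genes inside a same-strand gene that has its own row (right) and for all others (left). Every gene with reads is on the left, and the 131 genes on the right are all at 0.

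The hosts themselves were well covered. The 131 genes lay in 79 hosts, 61 of them protein coding. Of all 79 hosts, 76 had the 20 allele reads per library that the test required. These 76 hosts had a median of 1893.5 reads in library 1 and 2159.5 in library 2. For 128 of the 131 genes the host could be tested although the small RNA was at 0, so that no ratio of these small RNAs could be set against that of the host. Gas5, a noncoding host that holds Snord47, Snord78 and Snord80, had 3539 reads from 129 and 4544 from cas in library 1, and 3959 from 129 and 5143 from cas in library 2. The cas allele was ahead in both. Its log2 ratio was -0.70 (SE 0.06), with a limma adjusted p of 4.8e-30. Snhg14, known as a long paternally expressed transcript that carries the Snord116 cluster, held 17 of the listed genes. It had 2137 reads from 129 and 1626 from cas in library 1, and 2436 from 129 and 1617 from cas in library 2. Its 129 shares of 56.79% and 60.10% were near those of the typical gene, so this row was not read from 1 allele only. Its ratio of 0.16 (SE 0.08) was not called (adjusted p = 0.076). Snhg12, with 4 listed genes inside, and Tex14, whose span holds 5 (Rnu1a1 and the U3 genes Rnu3b1 to Rnu3b4), had ratios of 0.04 and 0.06 and were not called either.

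Among the box C/D genes known to lie in imprinted domains, the 17 Snord116 genes, Snord64 and Snord107 on chromosome 7 were all listed at 0 in both alleles and both libraries. Snord113, Snord114 and Snord115 were not analysed here. For the RNAs listed at 0 no allele ratio can be given.

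Over all 150 genes, RNA length also differed between genes with and without reads, but not in the same direction among the 19 outside such a host. The 150 genes span 62 to 414 bp with a median of 94.0 bp. Reads were found for 2 of the 82 genes shorter than the 100 bp reads and for 10 of the 68 longer ones. The 2 shorter genes with reads, Snord104 (70 bp) and Scarna17 (79 bp), are among the 19 genes outside a host with a row. The other 7 of the 19 were at 0 and are 107 to 166 bp long, all longer than the reads. Of these, Scarna3a and Snord23 lie inside Cop1 and Nop53, which were not matched to a row by name, and Rnu11, Rnu1b6, Rnu6-ps2, Snora43 and Snora57 lie inside no annotated gene of their strand, so U11 of the minor spliceosome had no value whereas its partner U12 had one.

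Of the 12 genes with reads, 9 reached the minimum of 20 allele reads per library for testing, and their values are a description of those 9 and not of all 150. Scarna17 and Snord13 were called higher from 129, which is 2 of 9 beside 21.9% of all tested genes. Scarna2, Rnu5g, Snord118 and Snora17 were called higher from cas, which is 4 of 9 beside 22.0% of all tested genes. Scarna13, Snord104 and Rnu12 were not called. The median log2 ratio of the 9 was -0.58 and the median size 0.86, whereas over all tested genes the median was 0.00 and the median size 0.40. Ratios of at least 8-fold were seen for Scarna17 and Rnu5g, 2 of 9 beside 3.44% of all tested genes, and the same 2 had at least 90% of their reads from 1 allele in each library, as did 2.77% of all tested genes.

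**Figure D2:**
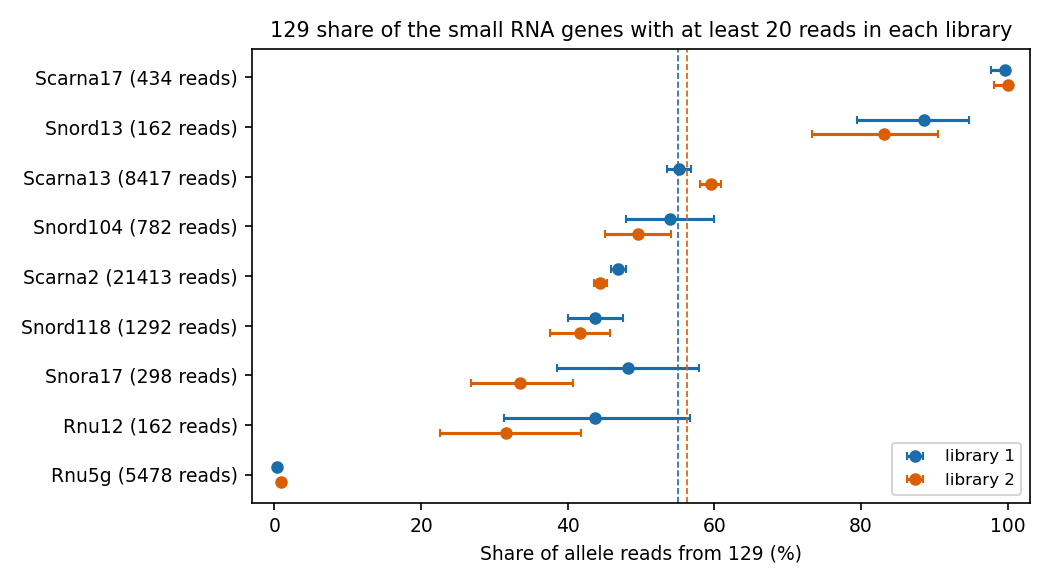
Share of allele reads from 129 in percent (horizontal axis) for the 9 tested small RNA genes, with exact binomial 95% intervals, library 1 in blue and library 2 in orange, and dashed lines at the shares that stand for a log2 ratio of 0 (55.1% and 56.2%). Scarna17 lies at or near 100% and Rnu5g below 1%, while Scarna2, Snord118, Snord104, Snora17 and Rnu12 lie left of the dashed lines in both libraries.

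Of the Cajal body RNA genes with reads, Scarna2 was called higher from cas, Scarna17 higher from 129, and Scarna13 was not called. Scarna2, which in human cells guides methylation of U2 snRNA, is a 414 bp gene at chr3:108554338-108554751 on the minus strand and was the most read of all listed genes. It had 4245 reads from 129 and 4805 from cas in library 1, and 5494 from 129 and 6869 from cas in library 2. The cas allele was ahead in both libraries, with a 129 share of 45.67% ± 1.74 (SD, n = 2). The log2 ratio was -0.58 (SE 0.06; -0.48 and -0.68 in the libraries), a 1.49-fold difference with a limma adjusted p of 7.1e-24. No other annotated small RNA gene is at least 90% identical to it over 90% of its length.

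Scarna13, a box H/ACA type RNA of the Cajal body, lies at chr12:105031075-105031349 on the minus strand inside Snhg10, which was not matched to a row. It had 2099 reads from 129 and 1704 from cas in library 1, and 2745 from 129 and 1869 from cas in library 2. Its 129 share of 57.34% ± 3.04 (SD, n = 2) was close to that of the typical gene. The log2 ratio was 0.10 (95% interval -0.05 to 0.25) and was not called (adjusted p = 0.30), but it was called higher from 129 with a shared library size (0.43, adjusted p = 1.7e-07) and with column totals as library sizes (0.20, adjusted p = 0.019).

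Scarna17, known in human cells as a box C/D guide for snRNA methylation, was read almost only from 129. It lies at chr18:74778391-74778469 on the minus strand and had 242 reads from 129 and 1 from cas in library 1, and 191 from 129 and 0 from cas in library 2. Pooled over the libraries, 433 of 434 reads came from 129, a share of 99.77% (exact binomial 95% interval 98.72 to 99.99%, which like all intervals here covers counting error only, since reads are not independent molecules). The fitted log2 ratio of 6.60 (SE 0.66, adjusted p = 7.3e-22) depends on the pseudocount and was 4.64 with a pseudocount of 0.5 and 3.74 with a pseudocount of 1. Gm23119, an annotated scaRNA gene 92 bp away on the same strand, had 2767 reads from 129 and 846 from cas in library 1, and 2940 from 129 and 846 from cas in library 2. It was also called higher from 129, at a log2 ratio of 1.42 (SE 0.08, adjusted p = 3.3e-61), with both alleles well covered. The protein-coding gene Acaa2, a mitochondrial thiolase 728 bp away on the other strand, had a ratio of 1.09 (SE 0.25, adjusted p = 7.7e-05). In bulk RNA, fewer cells of a type and less RNA per cell cannot be told apart.

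**Figure D3:**
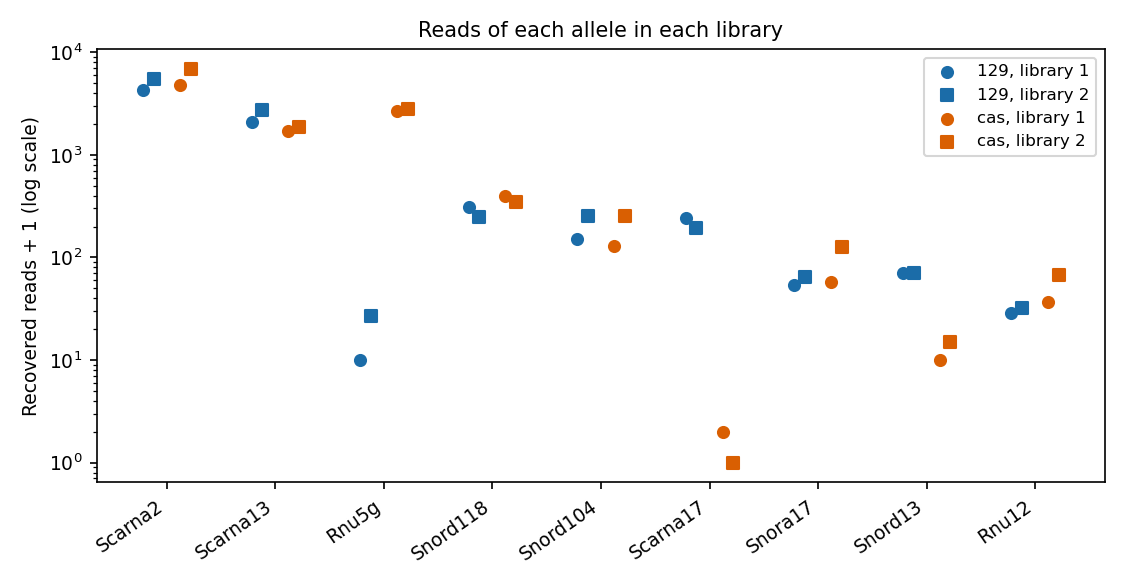
Whole reads plus 1 on a log axis for the 9 tested genes, ordered by total reads, with 129 in blue left of cas in orange, library 1 as circles and library 2 as squares. Scarna17 has 242 and 191 reads from 129 against 1 and 0 from cas, and Rnu5g has 9 and 26 from 129 against 2674 and 2769 from cas.

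The 3 Snord genes with reads lie outside any other annotated gene, which does not show that each has a promoter of its own. Snord118 is U8, which is needed for the maturation of large-subunit ribosomal RNA. It had 306 reads from 129 and 393 from cas in library 1, and 247 from 129 and 346 from cas in library 2. The cas allele was ahead in both, at a log2 ratio of -0.75 (SE 0.17; -0.66 and -0.84), a 1.68-fold difference (adjusted p = 3.5e-05). Tmem107, the protein-coding gene that ends 134 bp before it on the same strand, had too few reads to test (21 from 129 and 10 from cas in library 1, and 2 from 129 and 4 from cas in library 2).

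Snord13 on chromosome 8 is U13, which acts on small-subunit ribosomal RNA, where its human counterpart is needed for an acetylation. It had 70 reads from 129 and 9 from cas in library 1, and 69 from 129 and 14 from cas in library 2. The alleles did not overlap, and 85.87% ± 3.87 (SD, n = 2) of reads came from 129. The log2 ratio was 2.17 (SE 0.54; 2.51 and 1.84), a 4.51-fold difference (adjusted p = 0.00027), and no other annotated copy was found. Tti2, a gene 348 bp away on the other strand, had 353 reads from 129 and 416 from cas in library 1, and 524 from 129 and 462 from cas in library 2. Its ratio of -0.36 (SE 0.14, adjusted p = 0.033) was on the cas side of the typical gene, opposite to Snord13; a test of the difference between the genes was not made.

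Snord104 had 150 reads from 129 and 128 from cas in library 1, and 250 from 129 and 254 from cas in library 2. Its log2 ratio of -0.22 (95% interval -0.65 to 0.20) was not called (adjusted p = 0.42) and turned to 0.10 with a shared library size. The interval excludes a difference as large as that of Snord13 in either direction.

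Snora17 was the only Snora gene with reads. It lies at chr2:26639190-26639321 on the minus strand and had 53 reads from 129 and 57 from cas in library 1, and 63 from 129 and 125 from cas in library 2. The 129 share differed between the libraries, 40.85% ± 10.37 (SD, n = 2). The log2 ratio of -0.86 (SE 0.35; -0.39 and -1.32) was called at an adjusted p of 0.036. That call was lost in 5 alternatives, among them a shared library size (adjusted p = 0.20) and the exact binomial test in each library (adjusted p = 0.28), and adjusted p ranged from 0.029 to 0.28 over all alternatives.

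Of the tested Rnu genes, Rnu5g and Rnu12, Rnu5g had the more one-sided values. It encodes a U5 snRNA and had 9 reads from 129 and 2674 from cas in library 1, and 26 from 129 and 2769 from cas in library 2. The pooled 129 share was 0.64% (exact binomial 95% interval 0.45 to 0.89%). The log2 ratio was -7.64 (SE 0.20; -8.29 and -7.00), which corresponds to 199.8-fold (adjusted p = 7e-297). Rnu5g lies on the strand opposite to Parp16, which codes for an ADP-ribosyltransferase, within its span, and whether the counting used strand is not given. Parp16 had 286 reads from 129 and 197 from cas in library 1, and 244 from 129 and 208 from cas in library 2, at a ratio of 0.05 (SE 0.19) that was not called (adjusted p = 0.85). The part of Parp16 reads in the Rnu5g value was not tested.

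Rnu12, the U12 snRNA that recognises the branch site of minor introns, lies at chr15:83149644-83149794 on the plus strand. It had 28 reads from 129 and 36 from cas in library 1, and 31 from 129 and 67 from cas in library 2. The log2 ratio of -1.03 (95% interval -1.95 to -0.10) lay on the cas side in both libraries (-0.63 and -1.42) but was not called over all genes tested (adjusted p = 0.065); it was called with a pseudocount of 1 (adjusted p = 0.042), and adjusted p ranged from 0.042 to 0.21 over all alternatives. Rnu2-10, a U2 gene, had 13 reads from 129 and 3 from cas in library 1, and 8 from 129 and 3 from cas in library 2, too few to test. Rnu1b1 and Rnu1b2, U1 genes of identical sequence, had 1 read each, both from 129.

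Copies of the same snRNA did not share 1 allele ratio. Besides Rnu5g the table held 6 other U5 genes at least 90% identical over 90% of the length, of which 3 had reads. Gm25313, which lies on the same strand as Rnu5g and also within the span of Parp16, had 2 reads from 129 and 2228 from cas in library 1, and 0 from 129 and 2120 from cas in library 2. Its pooled 129 share was 0.05% (0.01 to 0.17%), on the same side as Rnu5g, and the log2 ratio -10.08 (SE 0.35, adjusted p = 1.8e-178). Gm23143 on chromosome 4 was the opposite, with 1559 reads from 129 and 58 from cas in library 1, and 1680 from 129 and 82 from cas in library 2. Its 129 share was 95.88% ± 0.75 (SD, n = 2) and its log2 ratio 4.20 (SE 0.16, adjusted p = 3.9e-142). Over these 7 U5 genes together, Rnu5g included, the 129 share was 24.16% in library 1 and 25.68% in library 2. Such copies can share reads, and how the authors placed a read that matches several genes is not stated in the labels, so single U5 values may be uncertain as to their gene.

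The U2 copies were uneven too. Rnu2-10 and the U2 genes at least 90% identical to it over 90% of its length numbered 14. Of these 14, 8 had reads and 6 were tested, 3 higher from 129, 2 higher from cas and 1 not called. Gm22973 had the most U2 reads and a moderate ratio (979 from 129 and 495 from cas in library 1, and 625 from 129 and 380 from cas in library 2; log2 ratio 0.52, SE 0.13). Gm25360 was higher from 129, with 559 reads from 129 and 77 from cas in library 1, and 423 from 129 and 54 from cas in library 2. Gm26316 was higher from cas, with 59 reads from 129 and 157 from cas in library 1, and 60 from 129 and 170 from cas in library 2. Gm25813 had 0 reads from 129 in both libraries against 47 and 25 from cas, and 0 of 72 reads allows a 129 share of up to 4.17% by the limit of 3 reads (4.99% by the exact binomial interval). Summed over these U2 genes the 129 share was 69.36% in library 1 and 67.16% in library 2. In the reference, Gm23849, Gm23971 and Gm24950 are identical to Rnu2-10. Gm23444 (log2 ratio 3.40) and Gm26316 (-1.76) each have 1 mismatch to it. As for U5, single U2 values and calls may therefore be uncertain as to their gene.

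Rnu1b1 and the U1 genes at least 90% identical to it over 90% of its length numbered 30. Of these 30, 11 had reads and 2 were tested, both higher from 129. Some U1 genes pass this limit against Rnu1a1 but not Rnu1b1 and are not among the 30. Gm26264 of these had 0 reads from 129 against 3 and 5 from cas, and Gm25581 had 3 and 3 from 129 against 0 from cas. As for U5, single U1 values may be uncertain as to their gene. Gm22513 held most of the reads, with 1218 from 129 and 7 from cas in library 1, and 2089 from 129 and 22 from cas in library 2 (log2 ratio 6.52, SE 0.24, adjusted p = 8.8e-152). Gm24136 had 62 from 129 and 1 from cas in library 1, and 52 from 129 and 1 from cas in library 2. Summed over these 30 U1 genes the 129 share was 98.56% in library 1 and 98.77% in library 2, and Rnu1b1 and Rnu1b2 gave 2 of these reads.

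**Figure D4:**
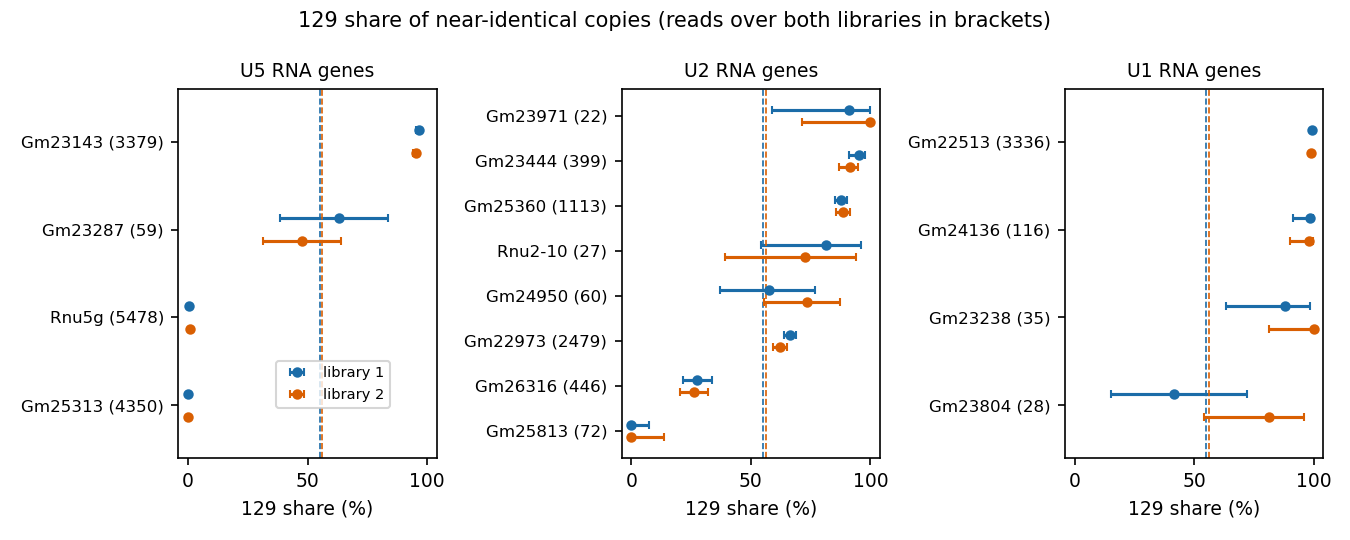
Share of allele reads from 129 in percent (horizontal axis) for U5, U2 and U1 genes with at least 20 reads over both libraries (total in brackets), with exact binomial 95% intervals, library 1 in blue and library 2 in orange, and dashed lines at the shares that stand for a log2 ratio of 0. Within U5 and within U2 the copies spread from near 0% to over 90%, whereas 3 of the 4 U1 genes lie above 80% in both libraries.

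Single-copy and multi-copy genes were set side by side by sequence and by symbol. By symbol, 50 genes in 14 families share a stem with another gene, the largest being Snord116 with 17, and of these 2 had reads and none was tested. The 9 tested genes are therefore all single by symbol, with the median of -0.58 given above. By sequence, 62 of the 150 have another annotated small RNA gene at least 90% identical over 90% of the length, 7 of them with reads, and 88 have none, 5 of them with reads. Of the tested genes, Rnu5g, Snord118, Snora17 and Rnu12 have such copies. Of these 4, 3 were called higher from cas and 1 was not called, with a median log2 ratio of -0.94. The 5 without a copy were Scarna2, Scarna13, Scarna17, Snord104 and Snord13, of which 2 were called higher from 129, 1 higher from cas and 2 not at all, with a median of 0.10.

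Median sizes of the ratio were 0.94 with copies and 0.58 without. At 4 and 5 genes these medians are descriptions and the difference was not tested. Among 31 other tested small RNA genes (miRNAs, of which 12 were tested, left out), the 18 with copies had a median of 1.16, a median size of 2.98 and 9 ratios of at least 8-fold, and the 13 without had a median of -0.42, a median size of 1.14 and 3 such ratios. Of those 13, 5 lie in the imprinted Dlk1-Dio3 domain on chromosome 12, where 4 were called higher from cas (log2 ratios of all 5 from -4.08 to -1.02), and 4 lie inside Taf1d on chromosome 9, none of them called (-0.42 to 1.14), so their values are not independent of each other. Of the 18 with copies, 6 are U2 genes, 2 are U1 genes, and Gm25313 and Gm23143 are U5 genes. Copies of 1 family can share reads, so these values are not independent of each other either. The median with copies lay on the cas side for the listed genes and on the 129 side for the other small RNAs. The median size was larger with copies in both, over these few families.

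**Figure D5:**
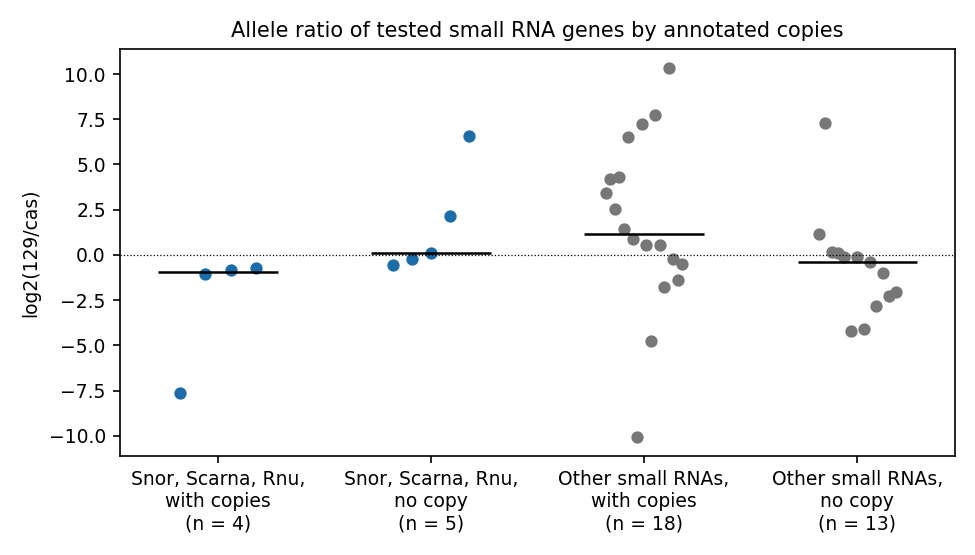
Log2 ratio of 129 over cas (vertical axis) of tested small RNA genes with and without another annotated copy of at least 90% identity, for the listed genes in blue (4 and 5) and other small RNAs except miRNAs in grey (18 and 13), each point a gene and each bar a median. The medians are -0.94 and 0.10 for the listed genes and 1.16 and -0.42 for the others, and strongly one-sided genes occur in all 4 groups.

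The genes of the proteins that build these RNA-protein particles were called more often toward cas in the scaled fit. Of 71 listed genes 62 had rows outside chromosomes 10 and 17 and 59 were tested, with 3 called higher from 129, 19 higher from cas and 37 not called, at a median log2 ratio of -0.19 (beside 21.9%, 22.0% and 0.00 over all tested genes). This split turned with the scaling: with a shared library size 19 were higher from 129 and 3 higher from cas (Coil, Lsm8 and Dkc1), beside 81.3% of calls over all genes being higher from 129 in that setting. Of the 22 genes called in the scaled fit, 4 then changed sign. Without the library as a block, 1 was higher from 129 and 7 were higher from cas.

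The counts by role come from the scaled fit and stand beside 21.9% (higher from 129) and 22.0% (higher from cas) of all tested genes. Among the box C/D core protein genes 2 of 4 were higher from cas, Nop56 (-0.37) and Nop58 (-0.18, but 0.15 with a shared library size). Of the box H/ACA protein genes 1 of 4 was called, Dkc1, which codes for dyskerin (-0.66, SE 0.08, adjusted p = 3.9e-16). Dkc1 lies on the X chromosome and so is not among the autosomal genes of the opening. Of the snoRNP assembly factors 5 of 11 were higher from cas (Naf1, Shq1, Ruvbl1, Rpap3 and Nolc1, between -0.17 and -0.40), and with a shared library size Shq1 was at 0.16 and the others lay between -0.08 and 0.00. Of the Sm and Lsm proteins, the rings that bind snRNAs, 4 of 10 were higher from cas (Snrpd1, Lsm5, Lsm6 and Lsm8). The cap and export factors had 1 of 7 higher from 129 (Tgs1) and 1 higher from cas (Snupn, the import adaptor for capped snRNAs, -0.63). In the SMN complex, which loads Sm rings, 1 of 7 was higher from 129 (Ddx20) and 2 were higher from cas, Gemin2 and Gemin5 (-0.30, but 0.03 with a shared library size). For snRNA transcription and 3′ end processing the counts were 1 (Ints6) and 3 (Ints7, Ints9 and Ints10, between -0.38 and -0.43) of 12. Among the Cajal body and telomerase genes 1 of 4 was called, Coil. Of these genes, those other than the 4 largest in each direction were named after their values were seen.

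Coil, the scaffold protein of the Cajal body, had the largest ratio of the list. It had 765 reads from 129 and 3442 from cas in library 1, and 1125 from 129 and 3994 from cas in library 2, with no overlap between the alleles. The log2 ratio was -2.33 (SE 0.08, adjusted p = 2.3e-182). Lsm8, which belongs to the ring on U6 snRNA, had 72 reads from 129 and 150 from cas in library 1, and 59 from 129 and 182 from cas in library 2 (-1.65, SE 0.29). Lsm5 of the same ring followed at -0.99 (SE 0.33) and Gemin2, an SMN complex member, at -0.66, and neither was called with a shared library size (adjusted p = 0.078 and 0.087).

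On the 129 side, Tgs1, the enzyme that trimethylates the caps of snRNAs and of U8 and U13, had 1619 reads from 129 and 946 from cas in library 1, and 1893 from 129 and 1003 from cas in library 2. Its log2 ratio was 0.52 (SE 0.09). The RNA helicase gene Ddx20 of the SMN complex had a ratio of 0.39 (SE 0.12), and Ints6 of the Integrator complex, which cuts snRNA 3′ ends, had 0.17 (SE 0.07). All 3 were called higher from 129 with a shared library size as well.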

How the data were processed

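Strand-specific total nuclear RNA libraries were sequenced as 100 bp paired-end reads and merged with earlier reads of the same libraries, per the labels' protocols; Bowtie2 and mm10 are named in the submitters' processing notes without a version. For the counting program, the annotation, the SNP set and strand use, the sources used here give nothing. The unit the authors deposited is RPKM, while the file headers name the columns counts. Value times length gave whole reads for 100.0% of values (tolerance 0.01 read). The deposited length column, another unit in bp, came within 2 bp of the gene's annotated length in 67 rows, and in 1 of the 150 small RNA genes, so levels of different genes were not compared; allele ratios are unaffected. All 150 genes matched GENCODE M21 by name, chromosome and strand, with starts within 2 bp.

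Limma 3.58.1 (R 4.3.3) was fitted to log2(CPM + 0.1) of the recovered reads with TMM scaling and trended variances, the allele as tested term and the library as block, on the 15509 rows with at least 20 allele reads in each library outside the Y chromosome (1570 rows). On this scale the ratio of a gene with few reads is understated. Genes of like abundance shared 1 spread (infinite prior degrees of freedom). The block pairs the columns because 1 RNA sample gave both alleles of a library. Tested rows had a median of 383 reads in library 1 and 461 in library 2, and 3 reads are 0.105 and 0.0955 CPM. On simulated data for 15389 genes the fit called 62.7% of the genes changed 1.5-fold (67 genes), 89.4% of those changed 2-fold (66) and 100% of those changed 4-fold (66), with 11 false calls (6.2% of calls). The simulation assumed a dispersion of 0.003 and changed only these genes. Its shares need not hold for the real data, in which 43.9% of tested genes were called.

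Binomial intervals are Clopper-Pearson at 95% (SciPy 1.17.1). Copies were found with BLAST 2.17.0 among annotated small RNA transcripts, counting genes that overlap on 1 strand as 1 locus; no genome was searched. Named were all tested genes, and of the assembly list the called genes with the 4 largest ratios toward either allele. The genes and lists were chosen with earlier results of these data known. Some sequences of these genes are not reported here.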

Additional observations from a re-analysis of the deposited data

How the results depend on the processing

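The numbers of small RNA genes called stayed within 2 to 3 (higher from 129) and 3 to 5 (higher from cas) under every alternative with a test, of which those with a lower read minimum tested more than the 9 genes. Without the replicate block they were 2 and 3, Snora17 lost its call (adjusted p = 0.14), and the assembly list had 1 gene higher from 129 and 7 higher from cas, against 3 and 19. Over all genes 3954 were then called, against 6809. With a shared library size the assembly list had 19 and 3, and with column totals 5 and 14. The median log2 ratio of genes single by symbol (-0.58) was -0.25 with a shared library size. With copies defined by sequence, chosen after seeing the data, it was -0.22 at 80% identity, 0.10 at 90% and -0.06 at 95%, by construction over fewer genes. Leaving out 1 library gave -0.68 and -0.39, and for the median with copies (-0.94) -1.37 and -0.64. Of the tested alternatives for single small RNA genes, 81 kept direction and call, 3 gained a call, 5 lost one and 1 (Snord104, 0.10 with a shared library size) changed sign; the cause was not tested. Snora17 also lost its call with column totals (adjusted p = 0.069) and no read filter (adjusted p = 0.063). With 1 library left out no residual degrees of freedom remain, so those are values without a test. The 2 planned count-model fits were not run, as the deposited unit is RPKM, nor was the genome search for copies. Small RNA genes with reads numbered 12, or 10 at a minimum of 3 reads. That minimum and the assembly list without the block were also chosen after seeing the data.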
